A study of Mus musculus with 11 samples.

Results

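The 40 genes described here encode the machinery that pulls chromosomes apart and divides the cell: the kinetochore, the spindle checkpoint, mitotic kinases, spindle motors and the cytokinesis apparatus. They were chosen by gene symbol from a list of mitotic functions, with earlier results of these data known. All 40 were found among the 24411 genes of the deposited expression table, and all 40 passed the filter that left 15497 genes for testing. They were followed in spontaneous neuroblastomas of homozygous Th-MYCN transgenic mice, in which the tyrosine hydroxylase promoter drives MYCN in sympathoadrenal cells. Every mouse, controls included, carried the transgene. Mice with tumours of around 5 mm were given 1 dose. Vehicle mice (n = 3) received vehicle IP. CBL0137 mice (n = 3) received 40 mg/kg by the intravenous route, panobinostat mice (n = 2, replicates 1 and 3) received 5 mg/kg IP, and combination mice (n = 3) received both drugs. Tumours were collected 16 h later, and the 11 of them gave 1 RNA-seq library each. The ages of the mice are not given in the sources used here. CBL0137 is a curaxin, a DNA-binding compound that traps the histone chaperone FACT on chromatin, and panobinostat is a histone deacetylase inhibitor.

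Mitotic genes are transcribed late in the cell cycle and their RNA is low in cells that rest. In resting and early-cycle cells the DREAM repressor, which contains the MuvB proteins with E2F4 and an RB-like pocket protein, sits at their promoters. In late-cycle cells MuvB joins B-MYB and then FOXM1 to activate the same promoters. MuvB contacts DNA at the cell cycle homology region (CHR), and the factor NF-Y binds CCAAT boxes nearby. Bulk RNA of these genes therefore follows the number of cycling cells in a tumour as well as the transcription in each.

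Promoter windows from 250 bases before to 50 bases after the start were read from RefSeq (build GRCm38.p6, which is mm10) for 34 of the 40 genes. Stretches of 230 bases of 6 of them are shown to let the arrangement of these elements be seen, from 200 bases before the start to its 30th base, read 5′ to 3′ on the strand of the gene. Each is from the member of its functional class with the largest decrease after the combination among those whose stretch holds a CHR letter match near the outermost start of the gene. Capitals mark TTTGAA or TTCGAA (CHR letters) and CCAAT, on either strand (TTCAAA and ATTGG on the other strand). In Cdca8 a TTTGAA and an ATTGG share 1 base.
Mki67: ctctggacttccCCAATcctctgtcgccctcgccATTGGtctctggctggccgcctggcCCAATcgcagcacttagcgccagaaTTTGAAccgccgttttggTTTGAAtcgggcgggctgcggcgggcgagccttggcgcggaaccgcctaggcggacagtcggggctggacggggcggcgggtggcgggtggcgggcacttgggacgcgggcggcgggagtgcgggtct
Cenpa: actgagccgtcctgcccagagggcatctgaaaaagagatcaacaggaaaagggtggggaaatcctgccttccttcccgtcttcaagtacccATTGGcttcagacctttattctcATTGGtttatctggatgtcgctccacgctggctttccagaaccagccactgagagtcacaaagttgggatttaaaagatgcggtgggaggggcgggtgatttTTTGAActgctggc
Bub1: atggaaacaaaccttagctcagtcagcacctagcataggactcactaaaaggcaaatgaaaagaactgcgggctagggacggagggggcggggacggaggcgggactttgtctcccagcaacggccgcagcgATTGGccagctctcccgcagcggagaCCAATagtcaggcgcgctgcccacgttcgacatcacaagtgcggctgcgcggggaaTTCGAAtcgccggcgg
Cdca8: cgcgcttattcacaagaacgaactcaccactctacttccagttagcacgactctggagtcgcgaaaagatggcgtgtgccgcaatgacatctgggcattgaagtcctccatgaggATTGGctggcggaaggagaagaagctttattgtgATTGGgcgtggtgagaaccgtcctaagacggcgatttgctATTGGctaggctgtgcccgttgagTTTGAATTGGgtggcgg
Kif11: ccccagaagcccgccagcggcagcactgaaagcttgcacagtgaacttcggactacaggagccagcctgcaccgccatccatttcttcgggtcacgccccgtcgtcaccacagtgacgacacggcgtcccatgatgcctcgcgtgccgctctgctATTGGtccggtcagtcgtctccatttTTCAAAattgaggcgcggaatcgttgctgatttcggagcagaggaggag
Kif23: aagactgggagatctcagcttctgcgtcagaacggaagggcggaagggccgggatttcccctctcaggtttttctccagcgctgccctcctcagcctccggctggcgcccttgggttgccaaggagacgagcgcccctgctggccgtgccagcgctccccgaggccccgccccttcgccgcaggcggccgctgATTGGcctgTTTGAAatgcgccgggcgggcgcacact
The stretches lie at chr7:135716350-135716579 (minus strand, Mki67), chr5:30666686-30666915 (plus strand, Cenpa), chr2:127831830-127832059 (minus strand, Bub1), chr4:124936888-124937117 (minus strand, Cdca8), chr19:37376182-37376411 (plus strand, Kif11) and chr9:61946770-61946999 (minus strand, Kif23). All 6 hold the bases before the tabulated start and the first bases after it. That start is the gene's outermost start in Bub1, Cdca8 and Kif11. It lies 71 bases inside the outermost start in Mki67, 9 in Cenpa and 11 in Kif23, so bases before it lie within the annotated gene there. The Mki67 stretch holds 2 CHR matches downstream of 3 CCAAT matches, the Bub1 stretch holds the TTCGAA form just after the start, and the Kif11 match is on the other strand.

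The 34 genes have 38 windows, and the 27025 genes with a window of this length have 32851. A gene was counted where any of its windows matched. Of the 34 genes, TTTGAA was found on either strand in 23 (67.6%), against 20.2% of the 27025. TTCGAA, which reads the same on both strands, was found in 4 (11.8%, against 1.80%). Either CHR form stood in 25 genes (73.5%, against 21.7%) and CCAAT in 26 (76.5%, against 41.1%), with at least 2 CCAAT matches in 16 (47.1%, against 13.3%). A CHR form and CCAAT stood together in 22 (64.7%, against 8.61%). In the shorter window of 100 bases before to 50 after the start, 24 of the 34 genes (70.6%) still held a CHR form, against 9.87%. Of the tested genes with a window, 16.4% held a CHR form in the longer window and 6.58% in the shorter one. Birc5, Mad2l1, Nuf2, Nusap1 and Pttg1 held none of these letters in their windows, and Cenpe, Cenpi, Cenpk and Nek2 held CCAAT only. For Aspm, Aurka, Cenpm, Ect2, Kif2c and Pttg1 the tabulated start lies more than 100 bases inside the gene's outermost start. These are letter matches, and binding was not measured in these tumours.

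**Figure D1:**
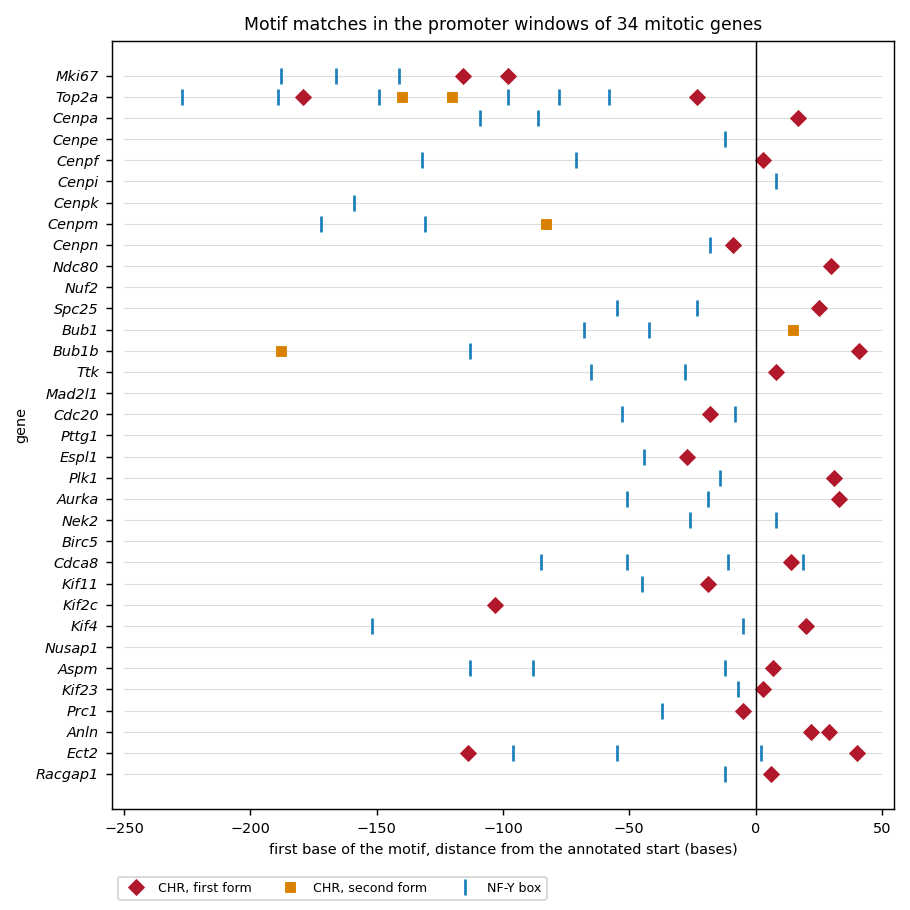
Position of each CHR match (diamonds, first form, and squares, second form) and NF-Y box match (blue ticks) relative to the annotated start, in bases. The first listed window of each of 34 mitotic genes is drawn. CHR matches gather around the start and NF-Y boxes mostly before it; 22 windows hold both and 5 rows are empty.

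The tumours carried the RNA of their cell of origin: all 10 sympathoadrenal markers (Th, Dbh and others) averaged at least 1 TPM in each of the 4 groups. TPM is a transcript's length-corrected share of its library, on a total that is equal in all libraries, so read depth is unknown. Several libraries held RNA of another tissue. Adrenal cortex markers summed to 5225 TPM in combination replicate 2 and at most 27.9 TPM elsewhere. Skeletal muscle markers summed to 9517 TPM in panobinostat replicate 3, 719 TPM in combination replicate 1 and 591 TPM in CBL0137 replicate 2, and at most 65.0 TPM elsewhere. Kidney markers summed to 425 TPM in vehicle replicate 2 and at most 120 TPM elsewhere. Most of the sum elsewhere was Aqp1 (118 TPM in combination replicate 3). Kap was at 302 TPM in vehicle replicate 2 and at most 3.29 TPM in any other library. Combination replicate 2 was also the lowest of all 11 libraries for 39 of the 40 mitotic genes, Pttg1 being the exception. For each comparison the count of called members or the median change is therefore also given without combination replicate 2, panobinostat replicate 3 and vehicle replicate 2. These are named below as the 3 libraries that hold other tissue. Fits without them keep 1 panobinostat library, whose spread is taken from the other groups. CBL0137 replicate 2 and combination replicate 1, which hold muscle RNA, were kept in those fits.

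The mitotic genes fell after the combination, with every class taking part. All 40 passed limma's threshold as lower than in vehicle (Benjamini-Hochberg adjusted p under 0.05), where 30.1% of all tested genes did. Their median log2 change was -2.08, against 0.08 over all tested genes, and the combination mean of a member was 12.3 to 61.5% of its vehicle mean (median 24.9%). In all 40, every combination library was below every vehicle library, which held for 32.4% of all tested genes. Without the 3 libraries that hold other tissue 40 were called, with a median of -1.71. Panobinostat alone left the members at a median 51.6% of vehicle and 23 of 40 passed as lower, where 16.9% of all tested genes did. After CBL0137 alone they stood at a median 66.3% of vehicle and 0 of 40 passed, where 1.13% of all tested genes fell. The group means of 39 of the 40 genes ran in the order vehicle, CBL0137, panobinostat, combination. The share of all tested genes in this order was not counted. Between the single drugs the order is unsure: 0 of the 40 were called, and the libraries of 29 overlapped. When TPM were scaled to the sympathoadrenal markers, 37 of the 40 estimates of panobinostat minus CBL0137 were above 0.

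**Figure D2:**
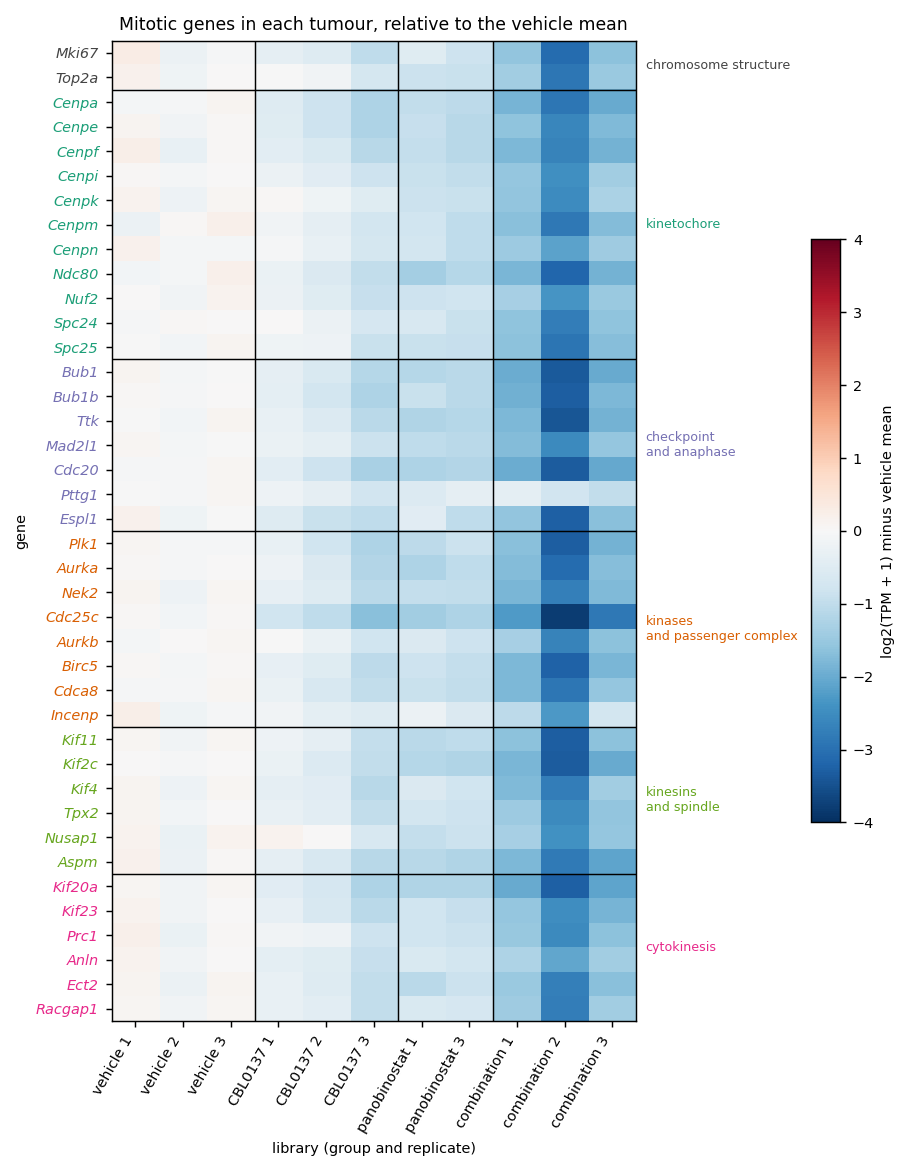
log2(TPM + 1) of each of the 40 mitotic genes in each library minus the vehicle mean of that gene, with classes separated by lines. Blue deepens from CBL0137 replicates 1 and 2 to panobinostat to the combination, combination replicate 2 is the deepest column, and the Pttg1 row stays pale.

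Mki67 and Top2a were the most abundant members, and both act on chromosome structure. Mki67 was at 408, 281 and 325 TPM in vehicle replicates 1 to 3, 260.1, 235 and 166 TPM after CBL0137, 236 and 189 TPM after panobinostat, and 112, 38.5 and 106 TPM after the combination. Its protein coats mitotic chromosomes and is the standard proliferation marker. Each treated library was below each vehicle library, and the combination libraries were below all others, with replicate 2 lowest. Mki67 fell by 2.10 ± 0.36 after the combination (log2, SE, adjusted p = 0.000535). Top2a measured 458, 358 and 413 TPM in the vehicle libraries, 399, 372 and 248 TPM in those given CBL0137, 225 and 219 TPM with panobinostat, and 155, 54.6 and 145 TPM with both drugs. Top2a, the topoisomerase that untangles sister chromatids, overlapped between vehicle and CBL0137, since 2 CBL0137 libraries were above the lowest vehicle library, and was separate in the panobinostat and combination groups. It fell by 1.92 ± 0.35 after the combination (log2, SE, adjusted p = 0.000724).

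The 11 kinetochore genes build the platform that joins centromeric chromatin to microtubules. All 11 fell after the combination, by 1.67 (Cenpn) to 2.30 (Ndc80) on the log2 scale. In vehicle libraries Cenpa was present at 137, 139.7 and 157 TPM, after CBL0137 at 101, 80.5 and 60.7 TPM, after panobinostat at 71.7 and 68.9 TPM, and after the combination at 39.2, 18.7 and 35.05 TPM. Cenpa, the histone H3 variant that marks the centromere, was lower in every treated library than in every vehicle library, and its combination libraries were lower than all others. It fell by 2.25 ± 0.25 after the combination (log2, SE, adjusted p = 4.11e-05). Cenpf was at 103, 71 and 90.2 TPM in vehicle replicates 1 to 3, 65.1, 57.1 and 40.2 TPM after CBL0137, 44.7 and 39.6 TPM after panobinostat, and 24.3, 12.8 and 22.5 TPM after the combination. Cenpf, a large protein of the outer kinetochore, showed the same order of groups without overlap between vehicle and any treated group. It fell by 2.12 ± 0.25 after the combination (log2, SE, adjusted p = 5.31e-05). Cenpe measured 84.9, 70.5 and 81.3 TPM in the vehicle libraries, 55.6, 43.8 and 32.6 TPM in those given CBL0137, 40.6 and 36.2 TPM with panobinostat, and 25.1, 12.2 and 22.4 TPM with both drugs. This kinesin carries chromosomes to the spindle equator, and its 3 combination libraries lay below its lowest CBL0137 library. It fell by 1.99 ± 0.26 after the combination (log2, SE, adjusted p = 8.73e-05).

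In vehicle libraries Cenpn was present at 51.4, 43.4 and 43.1 TPM, after CBL0137 at 44.4, 36.9 and 27.4 TPM, after panobinostat at 26.9 and 22.4 TPM, and after the combination at 16.1, 9.51 and 16.6 TPM. Cenpn reads the Cenpa nucleosome, and CBL0137 replicate 1 was within its vehicle range. It fell by 1.67 ± 0.22 after the combination (log2, SE, adjusted p = 0.00011). The 4 subunits of the Ndc80 complex, the main microtubule coupler, fell by similar amounts after the combination: 2.30 ± 0.32 for Ndc80, 1.73 ± 0.26 for Nuf2, 2.01 ± 0.29 for Spc24 and 2.09 ± 0.31 for Spc25 (log2, SE). Cenpi, Cenpk and Cenpm, of the constitutive centromere network, fell by 1.81 ± 0.25, 1.78 ± 0.28 and 2.08 ± 0.30. Their mean levels went from 30.6 ± 1.22, 40.6 ± 5.25 and 33.2 ± 5.18 TPM in vehicle to 8.45 ± 3.29, 11.8 ± 5.17 and 7.54 ± 3.33 TPM after the combination (SD, n = 3 each).

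The checkpoint holds anaphase back until every kinetochore is attached, and all 7 genes of the checkpoint and anaphase class fell after the combination. Bub1 was at 81.99, 71.5 and 75.2 TPM in vehicle replicates 1 to 3, 59.1, 49.3 and 33.9 TPM after CBL0137, 34.1 and 35.5 TPM after panobinostat, and 18.3, 6.58 and 18.1 TPM after the combination. Bub1, the checkpoint kinase that docks at kinetochores, was lower in every treated library than in vehicle, and combination replicate 2 stood far below its 2 partners. It fell by 2.45 ± 0.33 after the combination (log2, SE, adjusted p = 0.000113). Bub1b measured 133, 125 and 129 TPM in the vehicle libraries, 97.7, 76.7 and 54.8 TPM in those given CBL0137, 68.7 and 60.7 TPM with panobinostat, and 33.3, 12.3 and 36.4 TPM with both drugs. Bub1b encodes BubR1, a subunit of the mitotic checkpoint complex, and its groups followed the same order. It fell by 2.33 ± 0.35 after the combination (log2, SE, adjusted p = 0.000208). In vehicle libraries Mad2l1 was present at 113, 101 and 106 TPM, after CBL0137 at 88.3, 80.6 and 57.7 TPM, after panobinostat at 52.1 and 49.8 TPM, and after the combination at 31.2, 17.3 and 35.5 TPM. Mad2l1 encodes MAD2, the checkpoint protein that captures Cdc20, and both panobinostat libraries lay below all CBL0137 libraries. It fell by 1.95 ± 0.24 after the combination (log2, SE, adjusted p = 6.53e-05). Cdc20 was at 183, 185 and 202 TPM in vehicle replicates 1 to 3, 142, 106 and 76.9 TPM after CBL0137, 79.5 and 83.5 TPM after panobinostat, and 47.5, 18.1 and 44.98 TPM after the combination. Cdc20, the activator of the anaphase-promoting complex and the target of the checkpoint, had non-overlapping vehicle and treated libraries. It fell by 2.45 ± 0.33 after the combination (log2, SE, adjusted p = 0.000111). Ttk, the master checkpoint kinase, fell by 2.36 ± 0.37 and Espl1, the separase that cuts cohesin, by 2.17 ± 0.38.

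Pttg1 encodes securin, the inhibitor of separase, and behaved unlike its class (it was singled out after its values were seen). Pttg1 measured 84.1, 82.4 and 89.6 TPM in the vehicle libraries, 74.3, 65.98 and 49.5 TPM in those given CBL0137, 57.9 and 66.9 TPM with panobinostat, and 64.6, 50.2 and 42.7 TPM with both drugs. All treated libraries were below the vehicle libraries, but the combination libraries overlapped those of both single drugs, and the lowest of them was replicate 3. Pttg1 fell by 0.71 ± 0.17 after the combination (log2, SE, adjusted p = 0.00448), the smallest decrease of the 40, and this call was lost when TPM were scaled to the sympathoadrenal markers (-0.25, adjusted p = 0.457). Vehicle libraries held 45.5, 36.2 and 40.4 TPM of Espl1, which securin inhibits, and combination libraries 12.9, 3.33 and 11.9 TPM. Securin RNA thus stayed at 61.5% of its vehicle mean, while separase RNA was at 23.1%.

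Mitotic kinases drive entry into mitosis, centrosome separation and attachment repair, and all 8 genes of the kinase and passenger complex class fell after the combination. Cdc25c was at 53.8, 48.9 and 54.4 TPM in vehicle replicates 1 to 3, 29.8, 25.6 and 15.6 TPM after CBL0137, 19.4 and 21.7 TPM after panobinostat, and 10.1, 2.86 and 6.42 TPM after the combination. Cdc25c, the phosphatase that switches on the mitotic cyclin-dependent kinase, had the lowest combination levels relative to vehicle of all 40 members. It fell by 2.97 ± 0.34 after the combination (log2, SE, adjusted p = 4.57e-05). Nek2 measured 54.5, 43.5 and 53.8 TPM in the vehicle libraries, 40.05, 34.9 and 23.4 TPM in those given CBL0137, 25.4 and 24.9 TPM with panobinostat, and 13.4, 6.79 and 14.1 TPM with both drugs. Nek2 is the centrosome kinase that lets the spindle poles part, and its treated libraries all lay below vehicle. It fell by 2.11 ± 0.26 after the combination (log2, SE, adjusted p = 7.24e-05). Plk1 and Aurka, which mature the centrosomes and the spindle, fell by 2.28 ± 0.38 and 2.17 ± 0.35 (log2, SE).

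**Figure D3:**
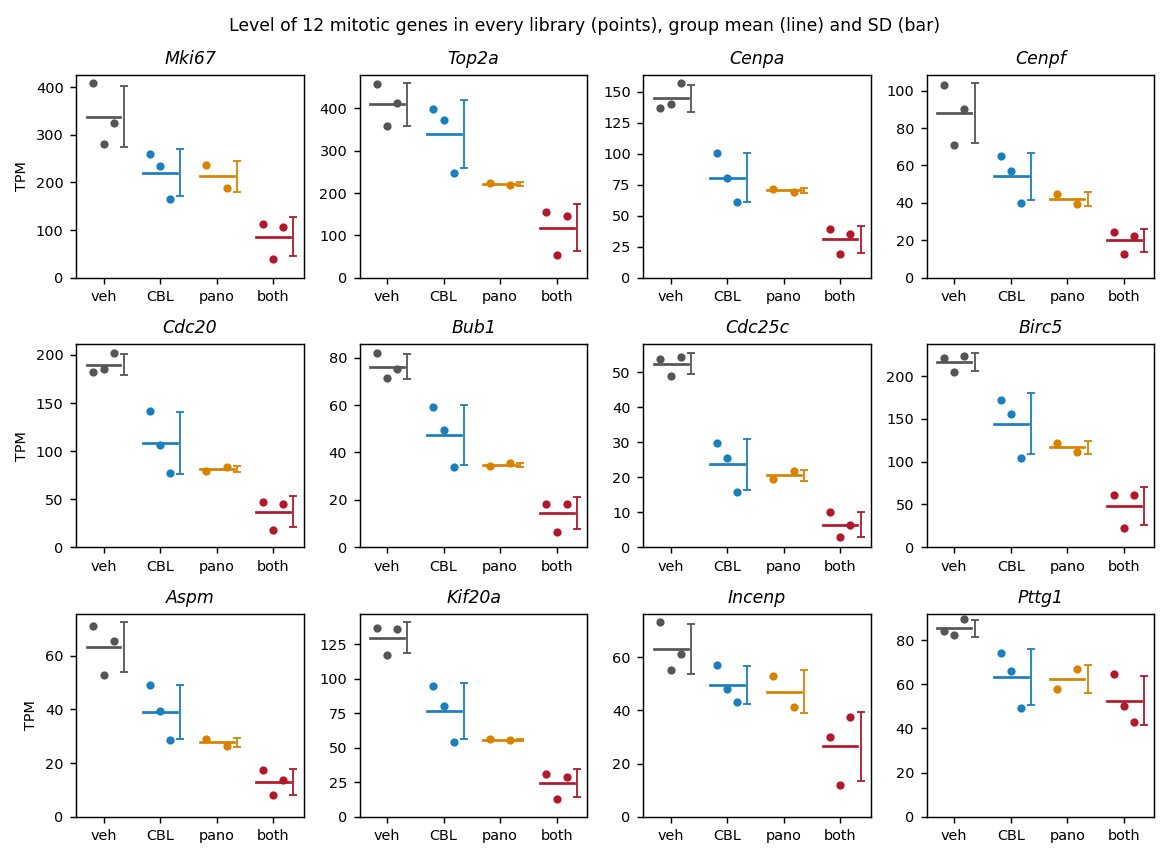
TPM of 12 mitotic genes in every library (points, replicates in order from left to right), with the group mean (line) and SD (bar); each axis starts at 0 and has its own scale. In 11 panels the 3 combination points are the lowest, while in the Pttg1 panel they overlap those of both single drugs.

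The chromosomal passenger complex, which corrects faulty attachments and later marks the cleavage plane, consists of the kinase Aurkb with Birc5, Cdca8 and Incenp. In vehicle libraries Birc5 was present at 222, 205 and 224 TPM, after CBL0137 at 173, 156 and 104 TPM, after panobinostat at 122 and 111 TPM, and after the combination at 61.5, 22.3 and 60.7 TPM. Birc5 encodes survivin, and its 4 groups were in the usual order with combination replicate 2 lowest. It fell by 2.28 ± 0.34 after the combination (log2, SE, adjusted p = 0.000207). Cdca8 was at 91.9, 92.4 and 100.1 TPM in vehicle replicates 1 to 3, 78.98, 59.8 and 46.96 TPM after CBL0137, 50.4 and 47.4 TPM after panobinostat, and 26.5, 12.04 and 31.8 TPM after the combination. Cdca8, which encodes borealin, gave the same picture. It fell by 2.07 ± 0.30 after the combination (log2, SE, adjusted p = 0.000185). Aurkb fell by 1.89 ± 0.31 after the combination. Incenp measured 73.3, 55 and 61 TPM in the vehicle libraries, 57.2, 47.9 and 43.1 TPM in those given CBL0137, 52.7 and 41.2 TPM with panobinostat, and 30.04, 12.01 and 37.4 TPM with both drugs. Incenp, the scaffold of the complex, was singled out after its values were seen, for a decrease smaller than that of all members but Pttg1. CBL0137 replicate 1 was above the lowest vehicle library, and the 2 panobinostat libraries lay on either side of CBL0137 replicates 2 and 3. It fell by 1.35 ± 0.33 after the combination (log2, SE, adjusted p = 0.00485), and by 0.88 without combination replicate 2.

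Spindle motors and assembly factors followed, with all 6 genes of this class lower after the combination. Kif2c was at 97.8, 92.2 and 97.4 TPM in vehicle replicates 1 to 3, 78.9, 65.1 and 48.4 TPM after CBL0137, 43.3 and 41.4 TPM after panobinostat, and 26.1, 8.60 and 23.1 TPM after the combination. Kif2c encodes MCAK, a kinesin that dismantles microtubule ends, and its panobinostat libraries lay below all CBL0137 libraries. It fell by 2.39 ± 0.33 after the combination (log2, SE, adjusted p = 0.000144). Aspm measured 71.2, 53.04 and 65.5 TPM in the vehicle libraries, 48.97, 39.6 and 28.7 TPM in those given CBL0137, 28.9 and 26.6 TPM with panobinostat, and 17.6, 7.99 and 13.8 TPM with both drugs. Aspm is a spindle pole protein, and panobinostat replicate 1 was just above CBL0137 replicate 3. It fell by 2.24 ± 0.26 after the combination (log2, SE, adjusted p = 5.31e-05). In vehicle libraries Tpx2 was present at 112, 95.3 and 104 TPM, after CBL0137 at 84.2, 77.6 and 51.8 TPM, after panobinostat at 61.8 and 58.4 TPM, and after the combination at 37.2, 16.8 and 34.2 TPM. Tpx2 nucleates microtubules and activates Aurka, and no treated library reached vehicle. It fell by 1.86 ± 0.27 after the combination (log2, SE, adjusted p = 0.00019).

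Nusap1 was at 81.9, 61.9 and 81.9 TPM in vehicle replicates 1 to 3, 81.4, 74.8 and 47.96 TPM after CBL0137, 37.9 and 40.2 TPM after panobinostat, and 29.02, 13.1 and 24.6 TPM after the combination. Nusap1 bundles spindle microtubules, and it had the smallest change of all members after CBL0137: CBL0137 replicates 1 and 2 were within the vehicle range. It fell by 1.77 ± 0.28 after the combination (log2, SE, adjusted p = 0.00031). Kif11, the motor that pushes spindle poles apart, fell by 2.19 ± 0.39 and the chromokinesin Kif4 by 1.98 ± 0.31 after the combination (log2, SE).

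The 6 cytokinesis genes build the central spindle and the contractile ring, and all 6 fell after the combination. Kif20a measured 136, 117 and 136 TPM in the vehicle libraries, 94.3, 80.2 and 54.4 TPM in those given CBL0137, 55.97 and 55.2 TPM with panobinostat, and 31.3, 12.6 and 28.9 TPM with both drugs. Kif20a, a central spindle kinesin, was lower in every treated library than in vehicle. It fell by 2.47 ± 0.30 after the combination (log2, SE, adjusted p = 6.90e-05). In vehicle libraries Kif23 was present at 60.2, 49.5 and 55.97 TPM, after CBL0137 at 43.7, 35.3 and 25.3 TPM, after panobinostat at 31.1 and 28.8 TPM, and after the combination at 18.2, 8.97 and 14.4 TPM. Kif23 is the motor subunit of centralspindlin, and its CBL0137 and panobinostat libraries overlapped. It fell by 1.97 ± 0.24 after the combination (log2, SE, adjusted p = 7.20e-05). Prc1 was at 151, 111 and 139 TPM in vehicle replicates 1 to 3, 121, 114 and 73.9 TPM after CBL0137, 75.6 and 72.8 TPM after panobinostat, and 45.4, 21.9 and 41.9 TPM after the combination. Prc1 crosslinks the antiparallel microtubules of the midzone, and 2 of its CBL0137 libraries were above the lowest vehicle library. It fell by 1.90 ± 0.27 after the combination (log2, SE, adjusted p = 0.000158).

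Anln measured 68.04, 55.2 and 61.9 TPM in the vehicle libraries, 46.8, 43.8 and 31.7 TPM in those given CBL0137, 40.4 and 36.9 TPM with panobinostat, and 25.7, 13.9 and 22.9 TPM with both drugs. Anln encodes anillin, the scaffold of the contractile ring. Vehicle libraries were above all treated ones, and CBL0137 and panobinostat libraries overlapped. It fell by 1.56 ± 0.22 after the combination (log2, SE, adjusted p = 0.000141). Racgap1, the partner of Kif23 in centralspindlin, and Ect2, the exchange factor that it recruits to activate RhoA, fell by 1.87 ± 0.33 and 1.96 ± 0.30 (log2, SE).

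**Figure D4:**
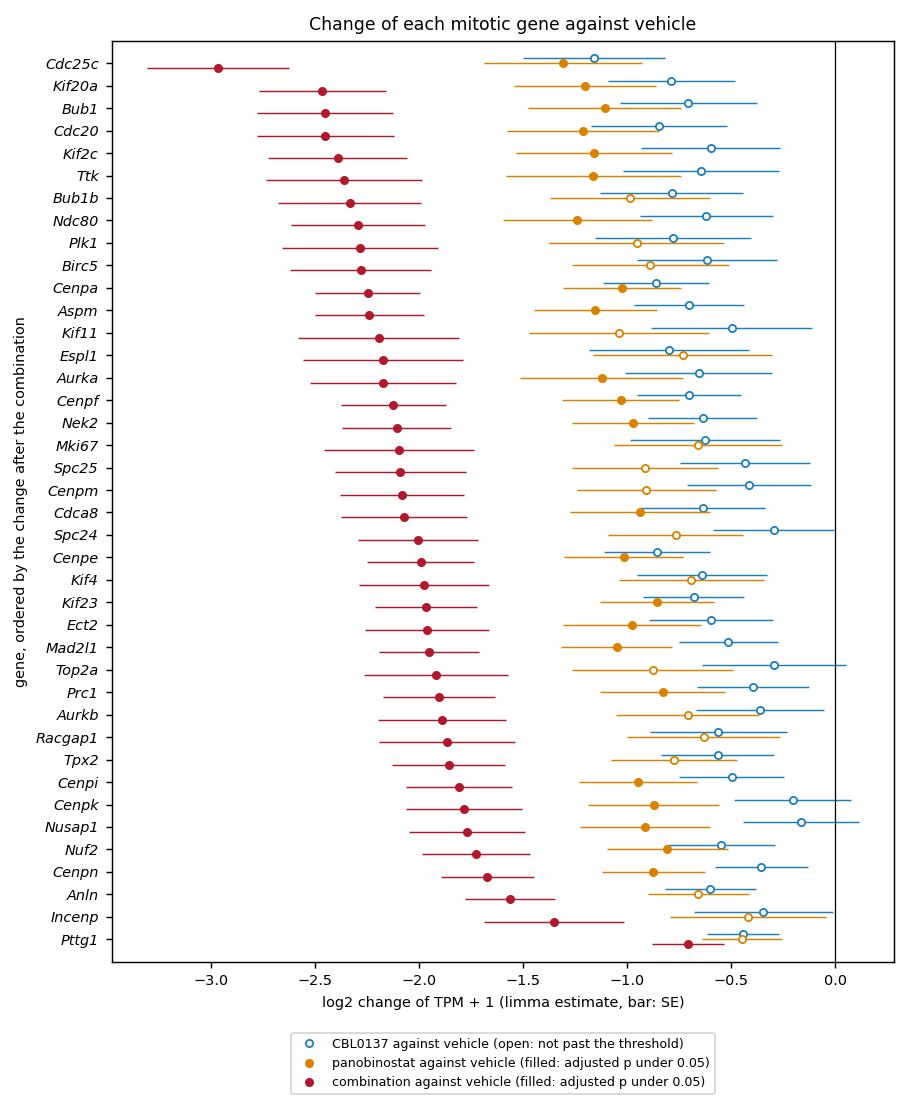
log2 change of TPM + 1 against vehicle (limma estimate, bar SE) for each of the 40 mitotic genes after CBL0137 (blue), panobinostat (orange) and the combination (red), filled where the adjusted p is under 0.05. All 40 red points are filled and lie left of the others, 23 orange points are filled, and all blue points are open.

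CBL0137 alone was followed by lower levels of most members, without a call. All 40 estimates were below 0, from -1.16 ± 0.34 (Cdc25c, adjusted p = 0.0739) to -0.17 ± 0.28 (Nusap1, adjusted p = 0.753), with a median of -0.61 against -0.01 over all tested genes. No member passed limma's adjusted threshold and 12 had an unadjusted p under 0.05, as did 24.5% of all tested genes. In 31 members all 3 CBL0137 libraries were below all vehicle libraries, which held for 19.1% of all tested genes. The 9 that overlapped were Top2a, Cenpk, Cenpm, Cenpn, Spc24, Aurkb, Incenp, Nusap1 and Prc1. The CBL0137 libraries kept 1 order throughout: replicate 1 was the highest and replicate 3 the lowest of the 3 in 40 of 40 members. Leaving out combination replicate 2, which enters only through the pooled spread, gave 13 calls, leaving out combination replicate 1 gave 1, and leaving out any other library gave 0, as did leaving out the 3 libraries that hold other tissue (median -0.66). Array weights gave 28 calls at a median of -0.50. Scaling TPM to the sympathoadrenal markers gave 24 at a median of -1.03, and moved the median of all tested genes to -0.43. In 36 of the 40 the gene's own 95% interval included its change after panobinostat, and in Cenpk, Cenpn, Mad2l1 and Nusap1 it did not.

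Panobinostat alone lowered 23 of the 40. The called genes fell by 0.81 to 1.31 on the log2 scale, and the median of all 40 was -0.93, against 0.10 over all tested genes. Calls were made in 8 of 11 kinetochore genes, 4 of 7 checkpoint and anaphase genes, 4 of 8 kinase and passenger genes, 3 of 6 spindle genes and 4 of 6 cytokinesis genes, but in neither Mki67 (-0.66 ± 0.40, adjusted p = 0.214) nor Top2a (-0.88 ± 0.39, adjusted p = 0.0928). Mad2l1 had the lowest adjusted p (-1.05 ± 0.27, adjusted p = 0.0108), followed by Aspm (-1.15 ± 0.30, adjusted p = 0.0112). Cdc25c changed most (-1.31 ± 0.38, adjusted p = 0.0202). In all 40 members both panobinostat libraries were below all vehicle libraries, which held for 27.8% of all tested genes. The count rests on few libraries: it was 0 without panobinostat replicate 3, 4 without panobinostat replicate 1, 9, 15 and 7 without vehicle replicates 1, 2 and 3, and 38 without combination replicate 2. Without the 3 libraries that hold other tissue, which leaves 1 panobinostat library, the median change was -0.95. Scaled to the sympathoadrenal markers it was 0, with a median of -0.75 and all 40 estimates below 0.

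Panobinostat and CBL0137 were not separated from each other. The difference, panobinostat minus CBL0137, ran from -0.75 ± 0.31 (Nusap1, adjusted p = 0.116) to 0.07 ± 0.43 (Espl1, adjusted p = 0.924) on the log2 scale. None of the 40 was called lower or higher, against 6.81% of all tested genes called lower and 12.1% called higher, and 1 had an unadjusted p under 0.05, against 35.6% of all tested genes. The 95% interval included 0 in 39 members and not in Nusap1, and the outermost bounds of single members were -1.50 and 1.03. In 11 members both panobinostat libraries were below all CBL0137 libraries, against 22.2% of all tested genes. Leaving out combination replicate 2 gave 5 calls, leaving out CBL0137 replicate 3 gave 1 and leaving out the 3 libraries that hold other tissue gave 0. The median difference was -0.36 as deposited (0.11 over all tested genes) and 0.25 when TPM were scaled to the sympathoadrenal markers (0.71 over all tested genes), so its direction depends on this scaling, which left 3 estimates below 0 in place of 39. Without CBL0137 replicate 1 the median was -0.18, with 28 below 0.

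The combination lay below CBL0137 alone in nearly every member. Of the 40 genes, 39 fell relative to CBL0137, by 0.96 (Anln) to 1.81 (Cdc25c), where 23.7% of all tested genes did. The median was -1.51, against 0.12 over all tested genes. In the same number, 39, all combination libraries were below all CBL0137 libraries, which held for 28.6% of all tested genes. Pttg1 was the exception to both counts, with a difference of -0.26 ± 0.17 (adjusted p = 0.218). The count was 38 to 40 when any single library was left out and 39 without the 3 libraries that hold other tissue. The Incenp call was lost without CBL0137 replicate 1 or 2 (adjusted p = 0.0847 and 0.0583), and Pttg1 was called without CBL0137 replicate 3. When TPM were scaled to the sympathoadrenal markers, a scaling that moved the median of all genes to 1.00, 6 members were called and Pttg1 turned to 0.61.

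The combination was also below panobinostat, with less certainty. In 39 members all combination libraries were below both panobinostat libraries, which held for 21.5% of all tested genes, and Pttg1 was again the exception (-0.26 ± 0.19, adjusted p = 0.366). The median difference was -1.13, against -0.02 over all tested genes. By limma 15 members fell, where 4.3% of all tested genes did. They were Mki67, Cenpa, Cenpf, Spc24, Bub1, Nek2, Cdc25c, Birc5, Kif4, Tpx2, Aspm, Kif20a, Kif23, Prc1 and Anln, with adjusted p between 0.0311 (Cdc25c) and 0.0497 (Prc1), so all stood near the threshold. The count was 0 without panobinostat replicate 1 or 3 or vehicle replicate 3, and 1 without vehicle replicate 2. It was 2 without vehicle replicate 1, CBL0137 replicate 2 or combination replicate 2, 3 without CBL0137 replicate 1, and 5 without combination replicate 1. It was 27 without CBL0137 replicate 3 and 35 without combination replicate 3. Without the 3 libraries that hold other tissue it was 0, and the median difference was then -0.78.

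Whether both drugs together lowered the genes by more than the sum of their single changes was asked with an interaction term. This term was below 0 in 39 of 40 members, with a median of -0.53 against -0.02 over all tested genes, from -0.94 ± 0.43 (Spc24, adjusted p = 0.483) to 0.18 ± 0.26 (Pttg1, adjusted p = 0.818). None passed the threshold in limma and 0 had an unadjusted p under 0.05, and over all tested genes 0 were called and 10.5% had an unadjusted p under 0.05. The size rests on 1 library and on the scaling: the median was -0.11 without combination replicate 2 (36 below 0) and -0.12 without the 3 libraries that hold other tissue (29 below 0). Scaled to the sympathoadrenal markers it turned to 0.16 (8 below 0), where the median of all tested genes was 0.68. For example, the single changes of Cdc20 were -0.85 ± 0.33 and -1.21 ± 0.37, the change after both was -2.45 ± 0.33, and the interaction was -0.39 ± 0.49, which turned to 0.0425 without combination replicate 2. The 95% intervals of all 40 members included 0, with outermost bounds of -2.02 and 0.78.

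Added up over the 40 genes, mitotic RNA took 4385, 3770 and 4269 TPM in the vehicle libraries and 3432, 2974 and 2080 TPM after CBL0137. It took 2240 and 2132 TPM after panobinostat and 1340, 560 and 1269 TPM after the combination. The sums therefore do not overlap between vehicle and any treated group, and CBL0137 replicate 3 was below both panobinostat libraries. The 10 sympathoadrenal markers did not follow this order: their sums were 1272 to 1425 TPM in vehicle, 1793 to 2220 TPM after CBL0137, 1085 to 1281 TPM after panobinostat and 780 to 1693 TPM after the combination. Mitotic RNA per unit of sympathoadrenal marker RNA was 2.96 to 3.08 in vehicle, 1.09 to 1.66 after CBL0137, 1.75 and 1.97 after panobinostat, and 1.72, 0.331 and 0.981 after the combination. On this ratio too, every treated library was below every vehicle library. The markers themselves did not move together: 6 of the 10 were lower in every combination library than in every vehicle library, Dbh was higher in every one, and Th, Chga and Chgb overlapped. Combination replicate 2, which has the lowest ratio, had the highest marker sum of its group (1693 TPM) and is the library with adrenal cortex RNA. The part of this RNA in the ratio was not tested. In bulk tumours, fewer cells of a type and less RNA per cell cannot be told apart.

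**Figure D5:**
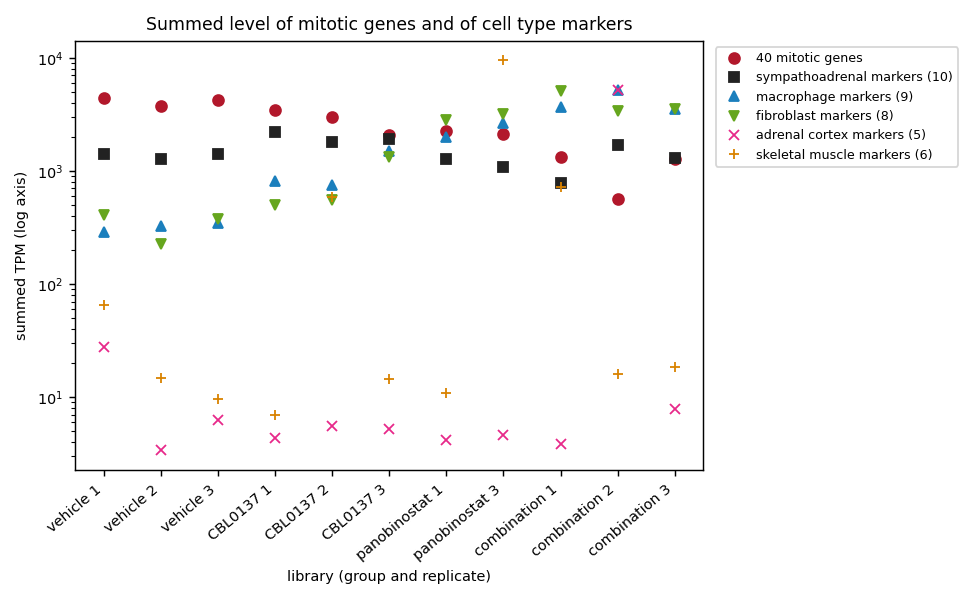
Summed TPM of the 40 mitotic genes and of markers of 5 tissues or cell types in each library, on a log axis (number of markers in brackets). Mitotic RNA falls from 3770 to 4385 TPM in vehicle to 560 to 1340 TPM after the combination while macrophage and fibroblast markers rise, and adrenal cortex and skeletal muscle markers peak in single libraries.

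Macrophage, fibroblast, endothelial and neutrophil markers moved the opposite way to the mitotic genes. The 9 macrophage markers summed to 291 to 344 TPM in vehicle, 748 to 1493 TPM after CBL0137, 2009 to 2633 TPM after panobinostat and 3509 to 5209 TPM after the combination. The 8 fibroblast markers summed to 228 to 404, 502 to 1320, 2832 to 3174 and 3392 to 5059 TPM in the same groups, the 8 endothelial markers to 40.7 to 62.2, 87.6 to 210, 211 to 240 and 394 to 735 TPM, and the 5 neutrophil markers to 2.29 to 17.7, 31.3 to 73.3, 182 to 350 and 424 to 602 TPM. At a mean of 1 TPM or more, 8 of 9 macrophage, 8 of 8 fibroblast, 7 of 8 endothelial and 3 of 5 neutrophil markers were present in vehicle and all of them after the combination. CBL0137 replicate 3, the lowest CBL0137 library of all 40 mitotic genes, was also the highest CBL0137 library in each of these 4 marker sums and had 180 TPM of lymphocyte markers. No marker of these 4 lists was at 0 in all libraries of a group. The part of these cells in the mitotic gene result was not tested. Histone cluster genes, which are used in S phase, took 8.31 to 9.60% of all TPM in vehicle and 1.26 to 3.95% after the combination.

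The wider mitotic apparatus moved with the 40. Beyond them, 5 lists of mitotic machinery and its regulators hold 101 tested genes. Of these, 91 fell and 2 rose after the combination, 53 fell and 1 rose after panobinostat, and 3 fell after CBL0137. Over all tested genes, 30.1% fell and 35.9% rose after the combination. After panobinostat 16.9% of all tested genes fell and 25.5% rose, and after CBL0137 1.13% fell. The same shares apply to each list below. Without any 1 library the count that fell was 87 to 91 after the combination. All 28 other kinetochore and centromere genes fell after the combination (median -1.73) and 19 after panobinostat. Cenpc1 is the protein that bridges the Cenpa nucleosome and the outer kinetochore. It was at 62.4, 56.7 and 61.6 TPM in vehicle, 45.3, 43.6 and 35.4 TPM after CBL0137, 36.3 and 32.7 TPM after panobinostat, and 23.7, 18.9 and 22.8 TPM after the combination, with no overlap between vehicle and any treated group. It fell by 1.43 ± 0.12 after the combination (adjusted p = 1.24e-05) and by 0.79 ± 0.14 after panobinostat (adjusted p = 0.00201). Ska2, of the complex that holds kinetochores on shrinking microtubules, fell by 1.79 ± 0.18, and Cenpq, of the constitutive centromere network, by 1.53 ± 0.14 after the combination.

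All 24 further spindle genes and kinesins fell after the combination and 10 after panobinostat. Kif18a, a kinesin that damps chromosome movements, went from 57.1 ± 7.36 TPM in vehicle to 11.1 ± 4.42 TPM after the combination (SD, n = 3 each). Fam83d, which brings a kinase to the spindle, and Ckap5, a microtubule polymerase, fell by 2.19 ± 0.25 and 1.29 ± 0.15. All 14 condensin and cohesin genes fell after the combination, among them Smc4 of condensin (1.43 ± 0.18) and Smc3 of cohesin (1.26 ± 0.15), and 10 fell after panobinostat. Of 19 checkpoint and anaphase-promoting complex genes, 16 fell after the combination and 9 after panobinostat. Ube2c, the ubiquitin carrier of that complex, measured 302, 293 and 308 TPM in the vehicle libraries and 79.8, 29.1 and 67.3 TPM with both drugs, with no overlap. It fell by 2.46 ± 0.32 (adjusted p = 9.02e-05), and the subunits Anapc5 and Cdc16 fell by 1.11 ± 0.10 and 0.81 ± 0.10. The 3 that did not pass were Anapc2, Anapc10 and Anapc13.

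The counts after the single drugs rest on few libraries, and both also moved when TPM were scaled to the sympathoadrenal markers. After panobinostat 53 of the 101 fell, but 28 and 29 did without vehicle replicates 1 and 3, 26 and 16 without panobinostat replicates 1 and 3, and 82 without combination replicate 2. The 3 that fell after CBL0137 were Cenpc1 (by 0.54 ± 0.12, adjusted p = 0.0342) and the cohesin genes Stag1 (0.40 ± 0.09, adjusted p = 0.0316) and Rad21 (0.60 ± 0.15, adjusted p = 0.0433). Without any 1 of the vehicle libraries, without CBL0137 replicate 2 or 3, or without the 3 libraries that hold other tissue, 0 of the 101 fell, and 17 did without combination replicate 2.

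Among 16 regulators of mitotic transcription, 9 fell and 2 rose after the combination, where 30.1% of all tested genes fell and 35.9% rose. The MuvB subunits Lin9, with 30.8, 29.8 and 32.2 TPM in the vehicle libraries and 11.6, 9.40 and 12.8 TPM with both drugs, and Lin54, the subunit that reads the CHR, fell by 1.39 ± 0.13 and 1.11 ± 0.14. Lin9 was already at 13.3 and 13.0 TPM after panobinostat (fell by 1.18 ± 0.15, adjusted p = 0.000584). The activators Foxm1 and Mybl2, which encodes B-MYB, fell by 1.52 and 1.65 after the combination. Of the NF-Y subunits Nfyc fell by 0.72 ± 0.09 and Nfyb by 0.74, with Nfya at 0.04 (adjusted p = 0.877). Rb1, the retinoblastoma pocket protein gene, rose by 0.67 ± 0.10 (adjusted p = 0.000278). Its relative Rbl2 rose by 0.50 ± 0.19 (adjusted p = 0.0448). That call held without CBL0137 replicate 3 or combination replicate 3 and was lost without any 1 of the other 9 libraries (0.28, adjusted p = 0.157 without combination replicate 2). Lin37, Lin52, E2f4, Rbl1 and Nfya did not pass.

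Of 12 kinesins that carry cargo in interphase and in axons, 6 fell and 3 rose after the combination, where 30.1% of all tested genes fell and 35.9% rose. After panobinostat 3 rose, where 25.5% of all tested genes did. The shares that rose were no larger than those of all tested genes, and the median change after the combination was -0.34. The neuronal motors Kif5c and Kif21a fell by 1.64 ± 0.25 and 1.70 ± 0.23, and Kif21b rose by 2.16 ± 0.32 from a low level, with 0.900, 0.450 and 0.440 TPM in the vehicle libraries and 6.84, 5.01 and 6.50 TPM with both drugs. A CHR form was found in 1 of the 8 transport kinesin genes with a window, where 21.7% of all genes with a window held one. The other lists held it in 12 of 24 kinetochore and centromere, 6 of 18 checkpoint and anaphase-promoting complex, 14 of 19 spindle, 7 of 11 condensin and cohesin and 4 of 11 regulator genes with a window.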

How the data were processed

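RNA was measured in 11 tumours of 4 groups from stranded, ribosomal RNA-depleted total RNA libraries, per the labels' protocols. STAR, SAMtools and RSEM with mm10 are named in the submitters' processing notes, and their versions and settings are not given in the sources used here. The authors deposited TPM values for 24411 genes. Symbols in 27 rows read as dates and were replaced by the transcript name. TPM carry no read counts, so depth is unknown, and no counting interval or detection floor is given. Samples were grouped by their labels.

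The 15497 genes that reached 1 TPM in 2 or more libraries were tested as log2(TPM + 1), so changes of low genes are understated. One limma 3.58.1 model (R 4.3.3) fitted 4 group means over 11 libraries (trend, 7 residual degrees of freedom). Tests were 2-sided with Benjamini-Hochberg adjustment over all tested genes and a threshold of 0.05, in 7 comparisons. The comparisons with vehicle share the vehicle libraries, and those with the combination share the combination libraries. Per-library values are given for up to 4 members of each class with the lowest adjusted p of panobinostat or combination against vehicle, plus Mki67 and Top2a. Of each wider list up to 3 called genes with the lowest adjusted p are named. Rad21, Foxm1, Mybl2, Nfya, Nfyb, Rb1, Rbl2 and genes named as not passing were chosen after their values were seen. Members and lists were chosen with earlier results of these data known. Each mouse gave 1 library. The model was tested on simulated data. Alternatives were pseudocounts, filters, TMM factors, quantile normalization, rescaling without small RNA and histone genes, a replicate block, array weights, left-out libraries and a shorter promoter window. A scaling to sympathoadrenal markers was added after the data were seen. Promoter windows and sequences are from RefSeq (GRCm38.p6), and gene symbols were matched to it. Panobinostat replicate 2 was not analysed here. Tables and figures were made with Python 3.11.15, numpy 2.4.6, pandas 2.3.3 and matplotlib 3.10.9.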

Additional observations from a re-analysis of the deposited data

How the results depend on the processing

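The number of members called lower after the combination than in vehicle was 40 under every other alternative and 39 after the scaling to sympathoadrenal markers, which was chosen after seeing the data and moved the median of all genes to 0.54, from 0.08 as deposited. The counts for the other comparisons moved as follows, and the cause was not tested. For CBL0137 against vehicle, array weights gave 28 calls, sympathoadrenal scaling 24, and a pseudocount of 5 gave 1. For panobinostat against vehicle, the count was 15 without a filter, 12 after quantile normalization, 36 with array weights and 0 with sympathoadrenal scaling. For the combination against CBL0137 it was 6 with sympathoadrenal scaling. For the combination against panobinostat it was 3 without a filter, 25 with a filter of 5 TPM, 31 after quantile normalization, 28 after rescaling, 9 with array weights, 0 without the 3 libraries with other tissue and 0 with sympathoadrenal scaling. For panobinostat against CBL0137 it was 4 with array weights.

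Leaving out 1 library in turn gave 0 to 13 calls for CBL0137 against vehicle, 0 to 38 for panobinostat against vehicle, 40 to 40 for the combination against vehicle, 38 to 40 for the combination against CBL0137, 0 to 35 for the combination against panobinostat, 0 to 5 for panobinostat against CBL0137 and 0 to 0 for the interaction. A panobinostat group left with 1 library is assumed to vary like the others. For panobinostat minus CBL0137, 36 of the 40 members turned direction under sympathoadrenal scaling (median 0.25) and 11 or fewer under each other alternative. For the interaction, 31 turned under that scaling (median 0.16), 10 without the 3 libraries with other tissue and 3 or fewer under each other alternative. In the other comparisons the members that turned were Pttg1 under sympathoadrenal scaling (0.61 against CBL0137 and 0.0139 against panobinostat) and Nusap1 after CBL0137 without CBL0137 replicate 3 (0.065, in a range from -0.31 to 0.065). Of values named in the text, the interaction also turned for Pttg1 after quantile normalization (-0.0196) and for Cdc20 without combination replicate 2 (0.0425, in a range from -0.63 to 0.0425 over left-out libraries), without the 3 libraries (0.0951) and under sympathoadrenal scaling (0.30). Espl1, panobinostat minus CBL0137, turned with TMM factors (-0.00794), the replicate block (-0.15), without CBL0137 replicate 3 (-0.0342) and without panobinostat replicate 1 (-0.20, in a range from -0.20 to 0.34).

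Over 15 same-numbered pairs the correlation of deviations from the group means ran from -0.26 to 0.19 and passed 0.1 in 2. With groups of 2 or 3 libraries this cannot decide whether replicate numbers pair the samples. With a replicate block, 27 members were called lower after panobinostat, against 23 without it, and 40 after the combination. The combination had 39 calls against CBL0137 and 0 against panobinostat, where 15 were called without the block. The promoter count in the shorter window was 24, against 25. The number of mice limits what could be detected, and the part of read depth is unknown.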
